A study of Caenorhabditis elegans with 4 samples.

Results

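Type I piRNA genes of *C. elegans* are short independent transcription units with a shared promoter motif, and their capped transcripts are processed at both ends. The mature piRNAs are bound by the Piwi protein PRG-1, which guards the germ line against foreign sequences. The upstream sequence transcription complex (USTC), which includes PRDE-1, TOFU-4 and TOFU-5, occupies the promoters, and the chromodomain protein UAD-2 is found at the piRNA clusters. Precursors are then handled by PETISCO, a complex that contains TOFU-6 and takes PID-1 as its piRNA adaptor, cut at the 5′ end by an endonuclease that contains TOFU-1 and TOFU-2, and methylated at the 3′ end by HENN-1.

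The mRNAs of these 10 proteins were followed in adult animals depleted of ATTF-6, an AT-hook transcription factor found at the piRNA clusters, and in control animals. The 10 genes were chosen by their WormBase symbols out of 46934 genes in the count tables, as 4 factors of piRNA transcription, 5 factors of maturation and the Piwi protein itself. All 10 symbols were matched to one identifier each, all 10 passed the filter on low counts, and all 10 are reported whatever their values. The list itself was chosen with earlier results of these data known. The comparison asks whether the transcripts of the piRNA machinery change when ATTF-6 is lost from the germ line.

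The 2 ATTF-6 depletion libraries came from animals with the allele GFP::tev::aid::attf-6 on chromosome I, which puts green fluorescent protein and an auxin-inducible degron on ATTF-6, together with the transgene wrdSi51 on chromosome II. The 2 control libraries came from animals with wrdSi51 alone. That transgene, shared by both groups, drives TIR1, the plant adaptor that hands degron-tagged proteins to degradation, from the germline promoter mex-5p, and it also encodes mTagBFP2, an AID* degron and a nuclear localization signal ahead of the tbb-2 3'UTR. All animals were synchronized, grown at 20 °C on OP50 bacteria, moved to 4 mM auxin at the L4 stage and harvested whole as adults, so that exposure to auxin did not differ between the groups. Any effect of the tag itself cannot be told apart from that of losing ATTF-6, and only protein in cells with TIR1 is subject to degradation. The labels do not say whether the replicates are separate cultures, and the p-values measure only the spread between these libraries.

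The counts on genes summed to between 23923423 and 27269737 in the depletion libraries and between 29753993 and 32096525 in the control libraries. Replicates of the depletion lay further apart, with a median absolute log2 ratio between replicates of 0.26 over the 16591 genes tested, against 0.13 between the control replicates. The attf-6 mRNA had 100.9 and 125.8 CPM (normalized counts, relative to the scaled library total) upon depletion and 162.9 and 173.1 CPM in the control, a log2 fold change of -0.57 (SE 0.13, adjusted p = 0.0042, edgeR's quasi-likelihood test). Without control replicate 2 its adjusted p was 0.056. Auxin acts on the protein, so the mRNA does not measure the depletion.

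All 10 factors had lower counts in both depletion libraries than in both control libraries, and 9 of them fell at an adjusted p under 0.05 with libraries scaled by TMM, whereas 0 of the 10 did when the libraries were scaled to germ cell genes by their summed counts. Among the 16591 genes tested, 32.1% were lower at that threshold and 30.9% higher, while 38.1% had both depletion libraries below both control libraries. The median log2 fold change of the 10 factors was -0.84, beside 0.16 for all genes tested. The values ran from -1.97 for uad-2 to -0.21 for tofu-2, which did not pass the test. The factors of piRNA transcription had a median of -1.62 over 4 genes, the maturation factors -0.67 over 5 genes, and prg-1 had -0.73. These medians describe the lists, and the difference between them was not tested.

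**Figure D1:**
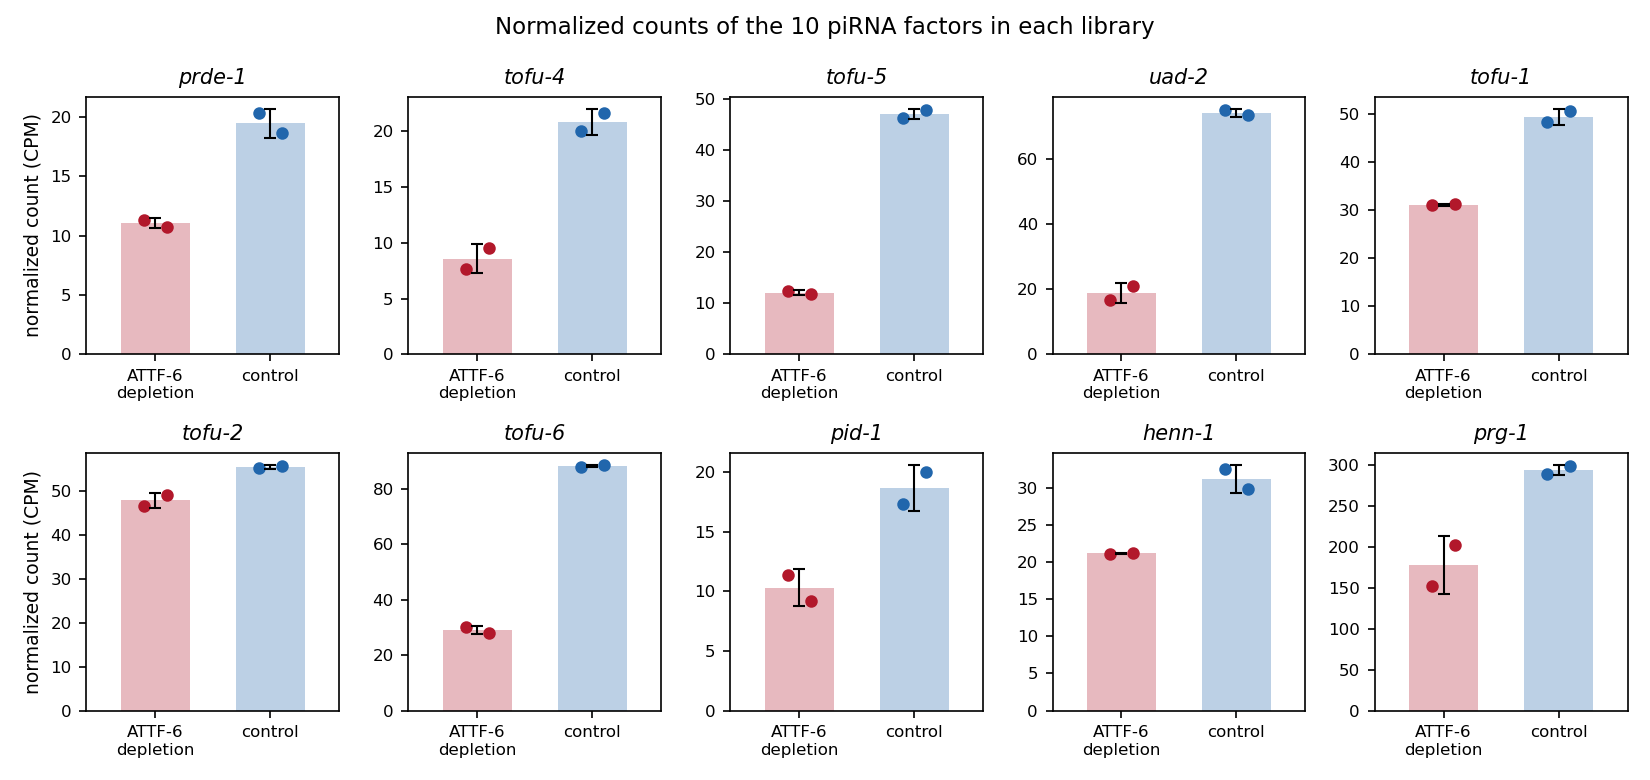
Normalized counts in CPM (vertical axes, each starting at 0) of the 10 piRNA factors, with ATTF-6 depletion left of control. Points are libraries, bars are means and error bars are SD (n = 2 per group). With this TMM scaling, both depletion libraries in every panel lie below both control libraries, by the least for tofu-2, with 46.6 and 49.0 CPM against 55.1 and 55.7 CPM.

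Among the USTC components, the mRNA of tofu-5 (WBGene00012167, chromosome I: 7069440 to 7070665, plus strand, WBcel235) fell most. It had 12.5 and 11.7 CPM upon ATTF-6 depletion, from 283 and 327 counts, against 46.4 and 47.9 CPM in the control, from 1513 and 1447 counts. Both depletion libraries were far below the control, at 25.7% of its mean when averaged, and the replicates of each group lay close together. The log2 fold change was -1.96 (SE 0.12, adjusted p = 3.7e-06, edgeR's quasi-likelihood test), and 5.86% of the genes tested had a lower value.

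The mRNA of tofu-4 (WBGene00019013, chromosome I: 4824904 to 4826639, minus strand), another USTC component, was counted at 174 and 265 reads upon depletion and 654 and 656 in the control. This was 7.67 and 9.51 CPM upon depletion and 20.1 and 21.7 CPM in the control. The depletion libraries differed from each other by a ratio of 1.24, and both remained far below the control. The log2 fold change was -1.28 (SE 0.16, adjusted p = 1.7e-04, edgeR).

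The least changed USTC component was prde-1 (WBGene00008995, chromosome V: 15538244 to 15547086, plus strand), whose protein marks the piRNA clusters in germ nuclei. It had 11.3 and 10.7 CPM upon depletion, from 257 and 299 counts, and 20.3 and 18.6 CPM in the control, from 663 and 563 counts. The groups did not overlap, and the log2 fold change was -0.82 (SE 0.15, adjusted p = 0.0011, edgeR). The mRNA of snpc-4, the subunit that USTC shares with the complex of small nuclear RNA genes, had 46.0 and 48.5 CPM upon depletion and 114.8 and 113.3 CPM in the control. Its log2 fold change was -1.27 (SE 0.10, adjusted p = 1.3e-05, edgeR), so that the 4 genes of the complex had values from -1.96 to -0.82.

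Outside USTC, uad-2 (WBGene00019429, chromosome I: 6473207 to 6476756, plus strand), which encodes the chromodomain protein of the clusters, had 16.7 and 21.1 CPM upon depletion and 75.004 and 73.3 CPM in the control. Both depletion libraries were far below both control libraries. The log2 fold change of -1.97 (SE 0.13, adjusted p = 5.5e-06, edgeR) lay within the SE of that of tofu-5. In depletion replicate 2 and control replicate 2 the count of uad-2 was fractional, so that at least some of its reads also aligned elsewhere, and the other 9 genes had whole counts. Its exons overlap those of nmtn-1 on the opposite strand over 624 bp, and nmtn-1 had between 88 and 108 counts in the 4 libraries. Counting was stranded.

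The maturation factors did not move alike. The largest decrease among them was that of tofu-6 (WBGene00017132, chromosome II: 5421248 to 5422737, plus strand), the PETISCO subunit. It had 30.1 and 28.1 CPM upon depletion, from 682 and 782 counts, and 88.0 and 88.5 CPM in the control, from 2869 and 2676 counts. The replicates of each group were close, and the log2 fold change was -1.60 (SE 0.10, adjusted p = 5.1e-06, edgeR).

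The mRNA of its adaptor pid-1 (WBGene00017549, chromosome II: 7689681 to 7690556, minus strand) had 11.4 and 9.23 CPM upon depletion and 17.3 and 20.0 CPM in the control. Its replicates differed in both groups, by a ratio of 0.808 in the depletion and 1.16 in the control, without overlap of the groups. The log2 fold change was -0.86 (SE 0.17, adjusted p = 0.0020, edgeR). The 4 other PETISCO genes, taken from a list of further piRNA pathway genes, all fell with TMM scaling, where 32.1% of all genes tested did. Scaled to germ cell genes, by their summed counts or by their median ratio, 0 of the 4 were called lower and 1 was called higher. With TMM they were pid-3, with a log2 fold change of -1.04 (SE 0.10), erh-2 with -1.28 (SE 0.19), the cap-binding ife-3 with -1.50 (SE 0.11), and tost-1 with -2.20 (SE 0.26). Their largest adjusted p was 3.6e-04, for erh-2 (edgeR). TOST-1 is the adaptor that replaces PID-1 in the form of PETISCO that does not serve piRNAs. The mRNA of tost-1 had 11.4 and 5.74 CPM upon depletion and 37.7 and 40.2 CPM in the control.

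The mRNA of tofu-2 (WBGene00017620, chromosome V: 7049434 to 7051248, minus strand), which encodes the catalytic subunit of the endonuclease, had 46.6 and 49.0 CPM upon depletion, from 1057 and 1364 counts, and 55.1 and 55.7 CPM in the control, from 1797 and 1684 counts. The libraries of the groups did not overlap, but the log2 fold change of -0.21 (SE 0.10) had an adjusted p of 0.090 in edgeR's quasi-likelihood test. DESeq2, which called 28.3% of 19229 genes lower and 17.8% higher, called it lower, with a log2 fold change of -0.35 and an adjusted p of 0.042. With DESeq2's kind of size factors, edgeR also called it lower (adjusted p = 0.024), where 5697 of 16591 genes were called lower and 4394 higher. The log2 fold change in edgeR was -0.19 without depletion replicate 1 and -0.30 without depletion replicate 2. It was -0.24 without control replicate 1 and -0.23 without control replicate 2. Whether tofu-2 was called thus varied with the scaling and the test used, and also with the library left out.

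The mRNA of tofu-1 (WBGene00007785, chromosome V: 9981147 to 9982766, plus strand), which encodes another subunit of the endonuclease, had 30.9 and 31.2 CPM upon depletion and 48.2 and 50.5 CPM in the control. The depletion replicates differed by a ratio of only 1.01. The log2 fold change was -0.67 (SE 0.10, adjusted p = 4.8e-04, edgeR). The remaining subunit of the enzyme is encoded by either slfl-3 or slfl-4, and both fell, with log2 fold changes of -0.65 (SE 0.15, adjusted p = 0.0049, edgeR) and -0.98 (SE 0.28, adjusted p = 0.015, edgeR). The slfl-4 mRNA was scarce, with 4.94 and 2.66 CPM upon depletion and 7.73 and 7.08 CPM in the control.

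At the other end of the precursor, the mRNA of henn-1 (WBGene00015349, chromosome III: 8232651 to 8234611, plus strand), which encodes the methyltransferase, had 21.1 and 21.3 CPM upon depletion and 32.5 and 29.9 CPM in the control. Its log2 fold change was -0.56 (SE 0.12, adjusted p = 0.0028, edgeR). Without control replicate 1 it was -0.52, and henn-1 was not called in that fit, which had 1 control library left. The first exon of henn-1 shares 10 bp with fbxl-1 on the same strand, and fbxl-1 had a log2 fold change of 0.64. Reads that overlap both genes cannot be told apart. The gene parn-1 encodes the exonuclease that trims the 3′ end before HENN-1 acts. It had 20.4 and 21.9 CPM upon depletion and 22.5 and 20.2 CPM in the control, overlapping values with a log2 fold change of -0.01 (SE 0.13, adjusted p = 0.93, edgeR).

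The Piwi gene prg-1 (WBGene00004178, chromosome I: 7585329 to 7588367, minus strand) had 152.1 and 202.5 CPM upon depletion, from 3451 and 5641 counts, and 289.1 and 297.7 CPM in the control, from 9423 and 8999 counts. The depletion libraries differed by a ratio of 1.33, the widest replicate gap among the 10 genes, and both lay below the control. The log2 fold change was -0.73 (SE 0.14, adjusted p = 0.0021, edgeR). It was -0.54 without depletion replicate 1 and -1.0 without depletion replicate 2. By Euclidean distance of centred log2 CPM over the 4 libraries, the tested genes closest to prg-1 were K09A11.1, akap-1 and rom-4, at distances of 0.0084, 0.026 and 0.044. With 4 libraries such likeness is common, and 294 genes lay within a distance of 0.2.

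**Figure D2:**
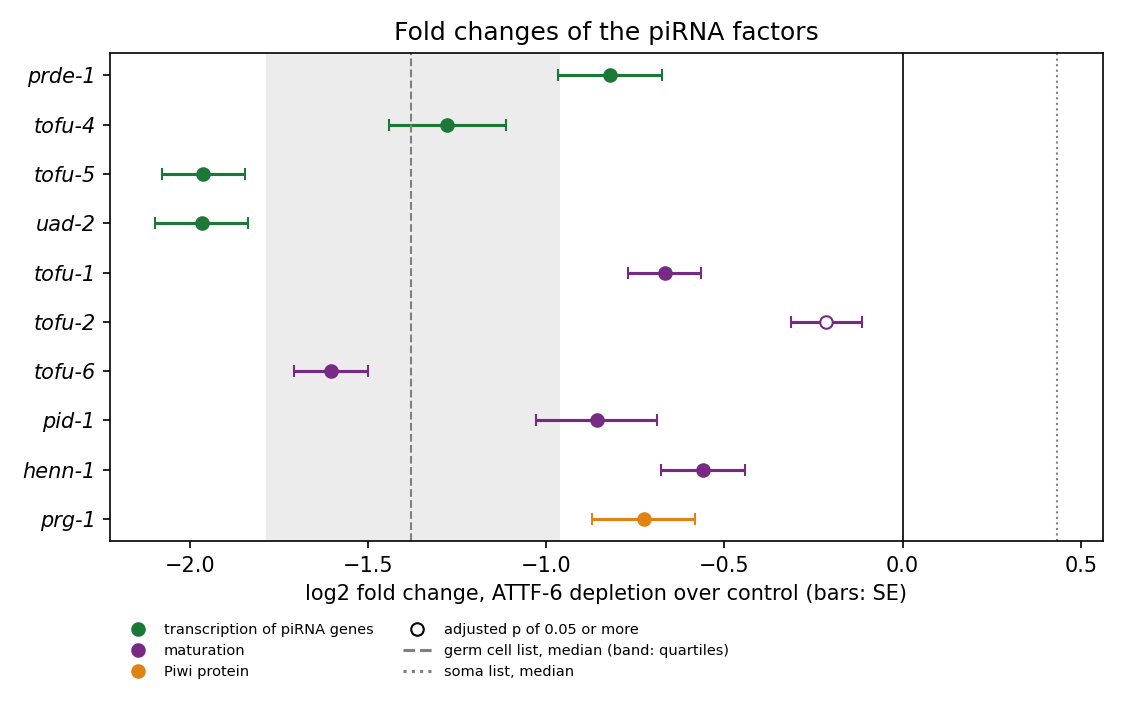
Log2 fold changes of the 10 piRNA factors, ATTF-6 depletion over control (horizontal axis, points with SE), coloured by role, with an open point where the adjusted p was 0.05 or more. The dashed line and grey band are the median and quartiles of 25 germ cell markers (-1.38, from -1.79 to -0.96) and the dotted line is the median of 20 soma markers (0.43). Only uad-2 and tofu-5 lie below the band, and tofu-4 and tofu-6 lie within it.

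The animals were collected whole, so a smaller share of germ cells and less of a transcript per germ cell cannot be told apart in these counts. By imaging, the paper found atrophy of the germ line when ATTF-6 was depleted from the L4 stage onward. All 25 genes of a germ cell list, among them pgl-1, gld-1 and glp-1, were lower at an adjusted p under 0.05, beside 32.1% of all genes tested. Their median log2 fold change was -1.38, the range was -2.65 to -0.54, and their summed level was 1560 and 1866 CPM upon depletion and 5722 and 5763 CPM in the control. Of 20 soma genes from muscle, pharynx, intestine, hypodermis and neurons, 11 were higher and 0 lower, beside 30.9% higher and 32.1% lower of all genes tested, with a median of 0.43 and a summed level of 17410 and 20142 CPM upon depletion against 13034 and 12911 CPM in the control. Only 2 soma genes were called higher without control replicate 1, and likewise 2 without control replicate 2. The soma median was 0.25 without depletion replicate 2. No gene of either list was at 0 in any library. Set beside the germ cell list, 3 piRNA factors fell by more than its median, uad-2, tofu-5 and tofu-6, and 7 by less. For a broader, published set of germline genes, the paper reported only a modest decrease of the median. The factors were not compared with that set, so these counts hold for the list of 25 genes alone. The log2 fold changes of tofu-1 and henn-1 were above those of 24 of the 25 germ cell genes and that of tofu-2 above all 25, while those of uad-2 and tofu-5 were below 20 of them. The part of germ cell loss in the decrease of single factors was not tested.

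Fold changes of the 10 factors were also computed with the libraries scaled to these lists, which were chosen with earlier results of these data known. All 25 germ cell genes were lower with TMM, so scaling to them moves every gene upward by construction. Under that scaling the sign of a factor restates its place relative to the list. With TMM, DESeq2 or the soma list, all 10 factors had negative log2 fold changes. Scaled to the summed soma list, all 10 were lower at an adjusted p under 0.05, where 39.7% of all genes tested were and 8.97% were higher, and the log2 fold changes ran from -2.51 for uad-2 to -0.74 for tofu-2. Scaled to the summed germ cell list, 0 of the 10 were called lower and 7 were called higher, where 3.55% and 83.1% of all genes tested were. In that fit uad-2 and tofu-5 had -0.23 and -0.20 and tofu-6 had 0.16, none past the threshold, and tofu-2 had 1.54. A sum is led by its most abundant member, here cgh-1 with 1753 and 1794 CPM in the control, and a scaling by the median ratio over the 25 genes was added after the data were seen. With it, uad-2 and tofu-5 stayed lower at -0.57 and -0.55, prde-1, tofu-1, tofu-2, henn-1 and prg-1 were higher, and tofu-4, tofu-6 and pid-1 were not called. Over all genes tested, 5.84% were lower and 74.7% higher under that scaling. In each of the 4 scalings the lowest values were those of uad-2 and tofu-5 and the highest was that of tofu-2, an order that a scaling common to all genes leaves nearly fixed.

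**Figure D3:**
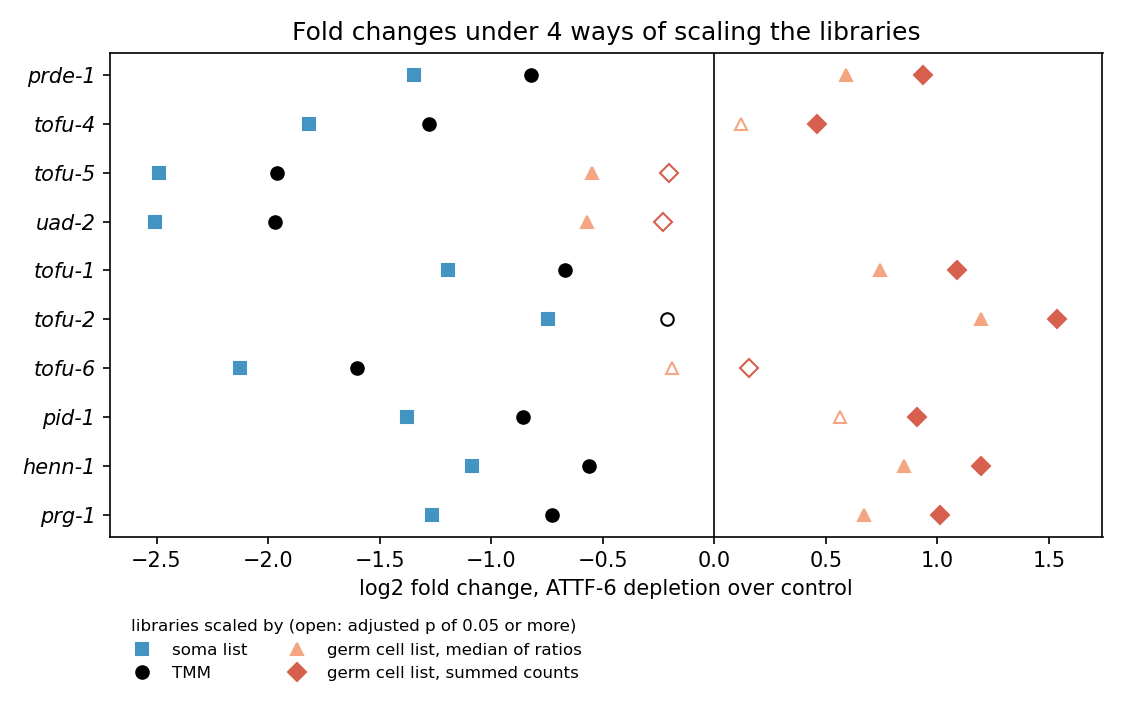
Log2 fold changes of the 10 piRNA factors, ATTF-6 depletion over control (horizontal axis), with the libraries scaled to the soma list, by TMM (edgeR's default), or to the germ cell list by median of ratios or by summed counts. Open symbols mark an adjusted p of 0.05 or more. The zero line falls left of most genes when germ cell genes set the scale, while uad-2 and tofu-5 stay left of zero in all 4.

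Ratios between the factors within one library do not depend on any scaling. Levels were therefore divided by exon length (CPM per kb) and expressed as a percentage of prg-1 in the same library. The tofu-5 mRNA was at 21.5% and 15.2% of the prg-1 level upon depletion and at 42.1% and 42.2% in the control. The uad-2 mRNA was at 10.02% and 9.49% upon depletion and at 23.6% and 22.4% in the control. The tofu-6 mRNA was at 43.6% and 30.6% upon depletion and at 67.2% and 65.6% in the control. For these 3 genes and for tofu-4, with 8.90% and 8.29% upon depletion against 12.3% and 12.9% in the control, the groups did not overlap. The share of all genes tested whose ratios to prg-1 separate the groups, in either direction, was not computed. In TMM-scaled CPM, 38.1% of them had both depletion libraries below both control libraries.

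The opposite was seen for tofu-2, at 60.1% and 47.4% of the prg-1 level upon depletion and 37.4% and 36.7% in the control. For prde-1, tofu-1, pid-1 and henn-1 the ratios to prg-1 overlapped between the groups. With 2 libraries against 2 an exact test of a ratio cannot reach a p under 0.05, and none was run. The ratios of depletion replicate 2 were the lower ones for all 9 genes, and prg-1 itself was higher in that library.

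Per length, prg-1 was the most abundant of the 10 in both groups, with 66.5 ± 13.4 CPM per kb upon depletion and 110.0 ± 2.28 CPM per kb in the control (SD, n = 2 each). Upon depletion it was followed by tofu-2, tofu-6, tofu-1, pid-1, henn-1, tofu-5, uad-2, prde-1 and tofu-4, where pid-1 and henn-1, uad-2 and prde-1, and prde-1 and tofu-4 overlapped between libraries. In the control it was followed by tofu-6, tofu-5, tofu-2, tofu-1, pid-1, uad-2, henn-1, tofu-4 and prde-1, and only pid-1 and uad-2 overlapped among neighbours. The tofu-5 level, behind only prg-1 and tofu-6 in the control with 46.4 ± 1.01 CPM per kb, was 11.9 ± 0.51 CPM per kb upon depletion (SD, n = 2 each) and behind 6 other genes. Of the summed level of all 10, tofu-5 had 6.22% and 5.37% in the depletion libraries and 11.5% and 11.6% in the control libraries. The share of uad-2 was 2.90% and 3.35% upon depletion and 6.45% and 6.17% in the control. That of tofu-4 was 2.58% and 2.93% against 3.35% and 3.54%. For prde-1 the shares overlapped, at 3.19% and 2.78% upon depletion and 2.85% and 2.55% in the control.

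**Figure D4:**
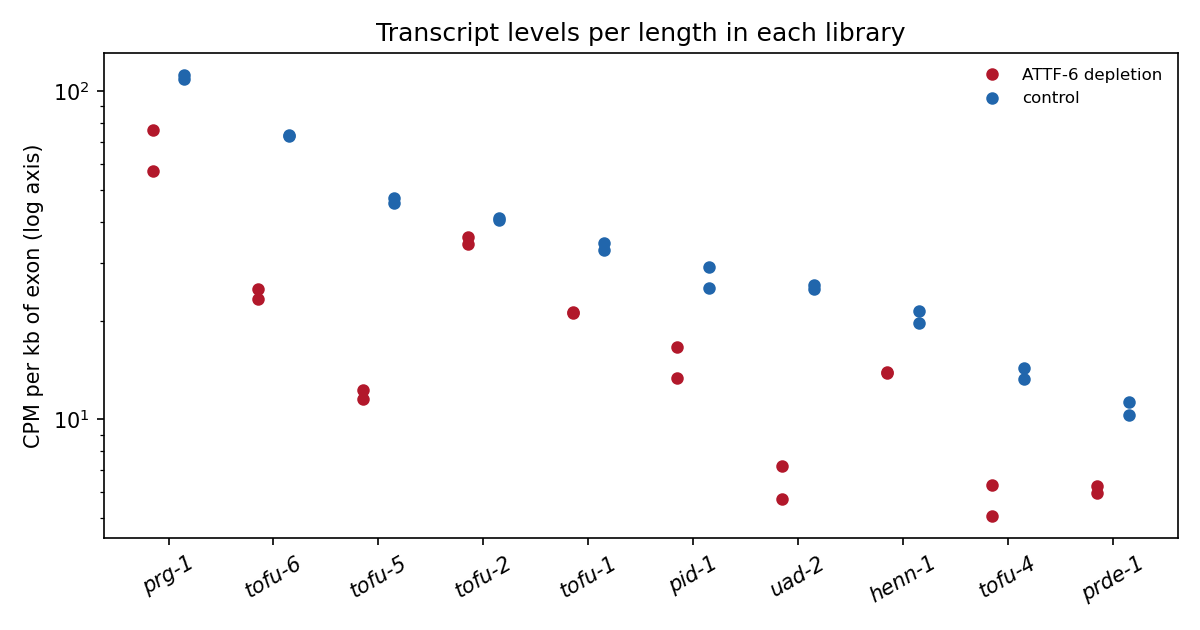
Levels of the 10 piRNA factors in CPM per kb of exon (vertical log axis), 1 point per library, with ATTF-6 depletion left of control for each gene and the genes ordered by their control level. The gap between the groups is widest for tofu-5 and uad-2 and narrowest for tofu-2.

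Further genes of the pathway were taken from a list of 23 symbols, of which 21 were matched to identifiers. At an adjusted p under 0.05, 19 of the 21 were lower and 0 higher, with a median log2 fold change of -1.03, beside 32.1% lower and a median of 0.16 over all genes tested. The largest decreases were those of xnd-1, which sets the distribution of meiotic crossovers, with -2.25 (SE 0.13), tost-1, and simr-1, which encodes a Tudor domain protein that acts after PRG-1, with -2.08 (SE 0.11). The forkhead gene unc-130 had 1.498 and 2.19 CPM upon depletion and 2.21 and 2.45 CPM in the control (log2 fold change -0.33, SE 0.31, adjusted p = 0.38, edgeR), and together with parn-1 it made up the genes that did not pass. The remaining genes of the list had log2 fold changes between -1.82 for lsy-13 and -0.61 for app-1. Among them were smo-1 and gei-17, of the SUMO pathway, with -0.999 (SE 0.11) and -0.79 (SE 0.10), and ints-11, the catalytic subunit of Integrator, with -0.91 (SE 0.12). Scaled to the summed germ cell list, 2 of the 21 were lower and 14 higher, where 3.55% and 83.1% of all genes tested were. By the median ratio over that list, 3 were lower and 11 higher, where 5.84% and 74.7% of all genes tested were.

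**Figure D5:**
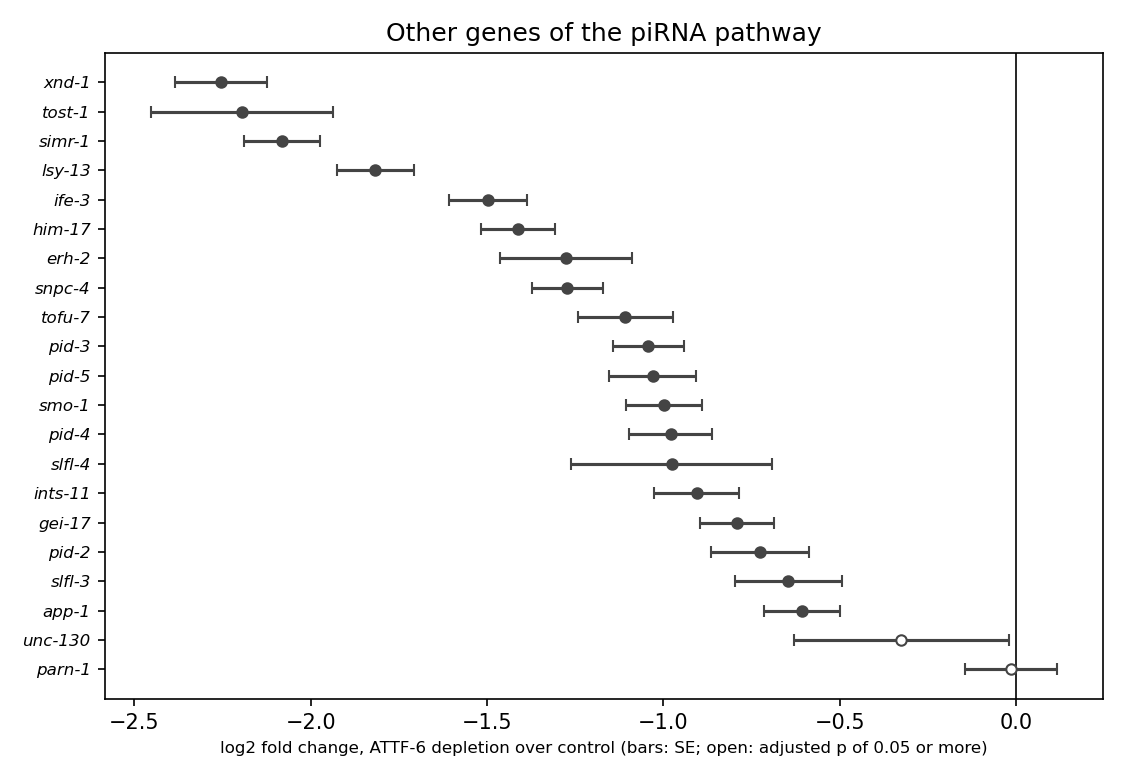
Log2 fold changes of 21 other genes of the piRNA pathway, ATTF-6 depletion over control (horizontal axis, points with SE), ordered by value, with open points where the adjusted p was 0.05 or more. The values run from -2.25 for xnd-1 to -0.01 for parn-1.

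In the genome, the 10 genes lie on chromosome I (tofu-4, tofu-5, uad-2 and prg-1), chromosome II (tofu-6 and pid-1), chromosome III (henn-1) and chromosome V (prde-1, tofu-1 and tofu-2). None lies on chromosome IV, where the type I piRNA clusters are. Their exons span from 688 bp in pid-1 to 2929 bp in uad-2, and the number of exon blocks is between 4 and 9.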

How the data were processed

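RNA of whole adult animals was sequenced after removal of ribosomal RNA and selection of RNAs longer than 200 nt, as paired reads of 150 bp. The labels call the libraries small RNA, while the protocol is that of mRNA-seq. After adapter trimming (TrimGalore), alignment to WS279 by STAR with up to 10 placements per read and removal of orphan mates, featureCounts was run by strand, with each multi-mapped read divided among its placements. The values deposited by the authors are therefore expected counts per gene. Their tool versions are not given in the sources used here. The 181 transposon rows, estimated with Salmon, were not used.

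Symbols came from a table of WormBase identifiers, and coordinates and exon lengths (union over transcripts) from Ensembl 115 on WBcel235. Counts were rounded and tested in R 4.3.3 with edgeR 4.0.16 (filterByExpr with minimum count 10 and total 15, TMM, prior count 0.125, quasi-likelihood F-test, two-sided), with Benjamini-Hochberg adjustment over 16591 genes and a threshold of 0.05. CPM are TMM-normalized. The SE was taken as |log2 fold change|/√F. The expected counts per library, between 23923423 and 32096525 as deposited, set the counting precision. Alternatives were other scalings, no filter, DESeq2 1.42.0, each library left out, and a replicate block. The fits were also run on simulated counts in which a small set of genes changed, equally up and down. That simulation does not test how the scaling behaves under changes as broad as those seen here. The 10 members are all named, together with attf-6, complex partners of members, parn-1, further genes of the list that mark its ends, and the 3 genes closest to prg-1. Members and lists were chosen with earlier results of these data known, and xnd-1, simr-1, unc-130, lsy-13, app-1, smo-1, gei-17, ints-11, cgh-1, fbxl-1 and nmtn-1 were named after their values were seen. In the paper's supplementary copy of the counts the numbers of the control replicates are exchanged relative to the labels, which were followed here.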

Additional observations from a re-analysis of the deposited data

How the results depend on the processing

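Over the 10 factors and all alternatives, 96 fold changes kept their direction and side of the threshold, 5 newly passed it, 4 no longer did, and 15 turned direction, the last under the scalings to germ cell genes. Scaled to the summed germ cell list, the log2 fold changes were 0.94 for prde-1, 0.46 for tofu-4, 1.09 for tofu-1, 1.54 for tofu-2, 0.16 for tofu-6, 0.91 for pid-1, 1.19 for henn-1, 1.01 for prg-1 and 1.18 for attf-6. By the median ratio over that list, chosen after seeing the data, they were 0.59 for prde-1, 0.12 for tofu-4, 0.74 for tofu-1, 1.20 for tofu-2, 0.56 for pid-1, 0.85 for henn-1, 0.67 for prg-1 and 0.83 for attf-6. Under these scalings the list medians were 0.92 and 0.58 for the 10 factors, 0.71 and 0.37 for the other pathway genes, and 0.36 and 0.021 for the germ cell list. Scaled to the soma list, the soma median was -0.11. The factors called lower numbered 0 and 2 under the summed and the median-ratio scaling, the other pathway genes 2 and 3, and all genes 589 and 969, while 13787 and 12395 genes were called higher. Scaled to the soma list 1489 genes were higher. Relative to TMM, the median of all genes shifted by 1.75, 1.41 and -0.52 under the summed germ, median-ratio germ and soma scalings, by -0.12 with RLE size factors and by -0.11 with DESeq2. Calls were higher in 49.0% of cases with TMM, 38.7% with DESeq2, 18.4% scaled to soma, and 95.9% and 92.7% scaled to the germ cell list.

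With single libraries left out, 8 to 10 factors were lower, as were 18 to 19 other pathway genes, and 4680 to 5927 genes were lower and 3562 to 5241 higher. Where this left 1 library in a group, it was assumed to vary like the other group. Replicate numbers are shared by the labels only. The correlation of same-numbered deviations was -0.01 over 16591 genes, and with a replicate block 5432 genes were lower and 5317 higher, with 9 of the 10 factors lower. Expected counts of 174 to 327 in the depletion libraries for the scarcest factors, prde-1, tofu-4, tofu-5 and pid-1, limit their precision.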

Other observations

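The count tables also hold rows for 15363 genes annotated as piRNA genes. Since RNAs shorter than 200 nt had been removed, these rows do not measure mature piRNAs. They summed to 42.5 and 58.9 CPM of the counts on genes in the ATTF-6 depletion libraries and to 50.5 and 56.7 CPM in the control libraries, so the groups overlapped. Between 446 and 611 of these genes had a count in a depletion library, and 570 and 588 in the control libraries.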
